A study of Mus musculus with 2 samples.

Results

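Genes of the colony stimulating factor and Flt3 axis were read across the cell types of NF1-OPG mouse optic nerves by single-cell RNA sequencing. They were picked by name from the gene list of the count tables, and all 9 of the 9 symbols were found among 32285 genes. The ligands were Csf1, Il34, Csf2 and Flt3l, and the receptor genes were Csf1r, Csf2ra, Csf2rb, Csf3r and Flt3. No measured value entered this choice.

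NF1-OPG mice (Nf1 flox/mut; GFAP-Cre on a C57BL/6 background) model the optic pathway glioma of neurofibromatosis type 1. One Nf1 copy is mutant in every cell, and the floxed copy is lost where the GFAP promoter has driven Cre. Optic nerves of 10 mice aged 12 weeks were pooled for each of 2 libraries, C-ON and FMC_new, which carry the same genotype label. They are read here as 1 condition with 2 libraries of pooled animals, and no wild-type or treated library was analysed here. C-ON is titled a control as well, and the labels do not say of what.

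The C-ON file held 10845 cell barcodes and 85101211 unique molecular identifiers (UMIs, each standing for 1 captured transcript), and the FMC_new file held 21341 barcodes and 129113325 UMIs. Quality filters kept 8834 and 16818 cells, with medians of 6810.5 and 4676.0 UMIs per cell. The libraries shared 296 barcodes, of which 188 belonged to kept cells. Cells were grouped into clusters without using the 9 genes, and 46 of 63 clusters were named from marker genes in 20 classes, each written as "-like". The other 17 clusters held 2908 cells (11.3%) and stayed unnamed. The libraries differed in make-up. Oligodendrocyte-like cells were 60.3% of the kept C-ON cells and 12.4% of those of FMC_new. Pituitary endocrine-like cells are not part of an optic nerve, and there were 19 of them in C-ON against 1758 in FMC_new. The hormone genes Gh, Prl and Pomc took at most 0.001% of the UMIs of any C-ON class, and between 0.235% and 2.69% of those of the FMC_new classes other than the pituitary one. Neutrophil-like and plasmacytoid dendritic (pDC-like) cells numbered only 3 each in C-ON. The tumor-like class was named from oligodendrocyte precursor genes such as Pdgfra and Cspg5, so tumor cells and precursors cannot be told apart. Nf1, the targeted gene, was read in this class at 131 CPM in C-ON and 95.9 CPM in FMC_new, where CPM is the UMIs of a gene for each 1000000 UMIs of a class. Reads outside the floxed part do not show whether an allele was recombined, so this does not check the genotype.

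Csf1 and Il34 are distinct proteins that bind the same receptor tyrosine kinase, Csf1r, on which microglia and most tissue macrophages depend. Csf2 (GM-CSF) acts through a receptor of a specific alpha chain, Csf2ra, and a signalling beta chain, Csf2rb, while Csf3r is the receptor for the neutrophil factor G-CSF. Flt3l acts through Flt3, a receptor kinase needed for dendritic cell development. The receptor Csf1r is also the target of pexidartinib, one of the drugs given to this mouse model in the study.

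On the GRCm38 build the genes lie apart. The ligands are at chr3:107741048-107760469 (Csf1, minus strand), chr8:110741829-110805924 (Il34, minus), chr11:54247271-54249667 (Csf2, minus) and chr7:45129788-45136432 (Flt3l, minus). Apart from Csf1r, placed below, the receptors are at chr19:61223957-61228429 (Csf2ra, minus), chr15:78325752-78353847 (Csf2rb, plus), chr4:126024550-126044440 (Csf3r, plus) and chr5:147330741-147400489 (Flt3, minus). Each UMI was assigned to a gene as a whole, with no position within it, so exons, introns and isoforms were not resolved. Genes on the opposite strand overlap Il34, Csf2, Csf1r and Flt3, and whether the counting used strand is not given in the sources used here. Gm45713 overlaps Flt3l on the same strand over 6444 bases and is not among the genes counted.

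A near copy of Csf2rb, Csf2rb2 at chr15:78282507-78305721 (minus strand), stands next to it and bears on how far the Csf2rb counts can be read. Csf2rb2 encodes the mouse beta chain of the interleukin-3 receptor. The coding sequences matched at 95.2% of 2628 aligned bases, with a longest identical run of 242 bases. The first coding exon, near the end from which a 5′ library is read, differed at 3 of 88 bases, shown in capitals, at chr15:78335207-78335294 for Csf2rb and chr15:78298142-78298229 for Csf2rb2 (each written 5′ to 3′ on its own strand).
Csf2rb: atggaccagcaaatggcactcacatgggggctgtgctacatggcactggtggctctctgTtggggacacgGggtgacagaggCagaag
Csf2rb2: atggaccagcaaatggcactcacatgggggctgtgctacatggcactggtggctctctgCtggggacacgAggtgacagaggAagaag
A read within a shared run matches both genes, so the split of UMIs between them is uncertain.

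The receptor genes had their highest levels in myeloid classes, and the promoters of the members were searched for GAGGAAG, a form of the purine-rich core bound by the myeloid factor PU.1 (gene Spi1), on both strands of the 250 bases before the RefSeq start. Of 32851 promoters in the RefSeq table for GRCm38, 10.6% held it. Il34, Csf1r and Csf2rb had no entry in that table, and 2 of the 6 members with an entry held the motif. The stretches are shown because both genes were highest in myeloid classes, with the motif in capitals. That of Csf2ra is chr19:61228419-61228448 (minus strand), with matches that begin 14 and 8 bases before the RefSeq start and share bases. The annotated gene given above begins at base 61228429, so part of this stretch, with bases of both matches, lies inside it. That of Csf3r is chr4:126024562-126024591 (plus strand), 86 bases before the start, within a transcribed leader that the gene annotation gives for other transcripts.
Csf2ra: ttcccaacctgcagatGAGGAAGAGGAAGc
Csf3r: ctccttcctgaGAGGAAGgggctgtctatg
A match describes these letters only. No binding data were analysed here.

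A level in CPM sums the gene's UMIs over the cells of a class in 1 library and is printed with exact 95% Poisson intervals in brackets, which cover counting error alone. Cells of a library share its source and are not replicates, and with 1 condition and 2 libraries no test between groups was possible. The C-ON value comes first where 2 values are given. A class was compared where each library had at least 50 of its cells, which left 13 classes. Of the 9 members 7 were highest in the same class in both libraries, against 61.1% of the 16580 genes with at least 20 UMIs in each. Only 2 of 9, Il34 and Csf3r, were at least 2 times as high in that class as in the next one in both libraries, against 17.3% of all genes. Both counts were near those backgrounds, so neither sets these genes apart. The exceptions to the first count were Csf2, with few UMIs, and Csf2ra, whose highest class was cDC2-like in C-ON (258 CPM) and macrophage-like in FMC_new (259 CPM).

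**Figure D1:**
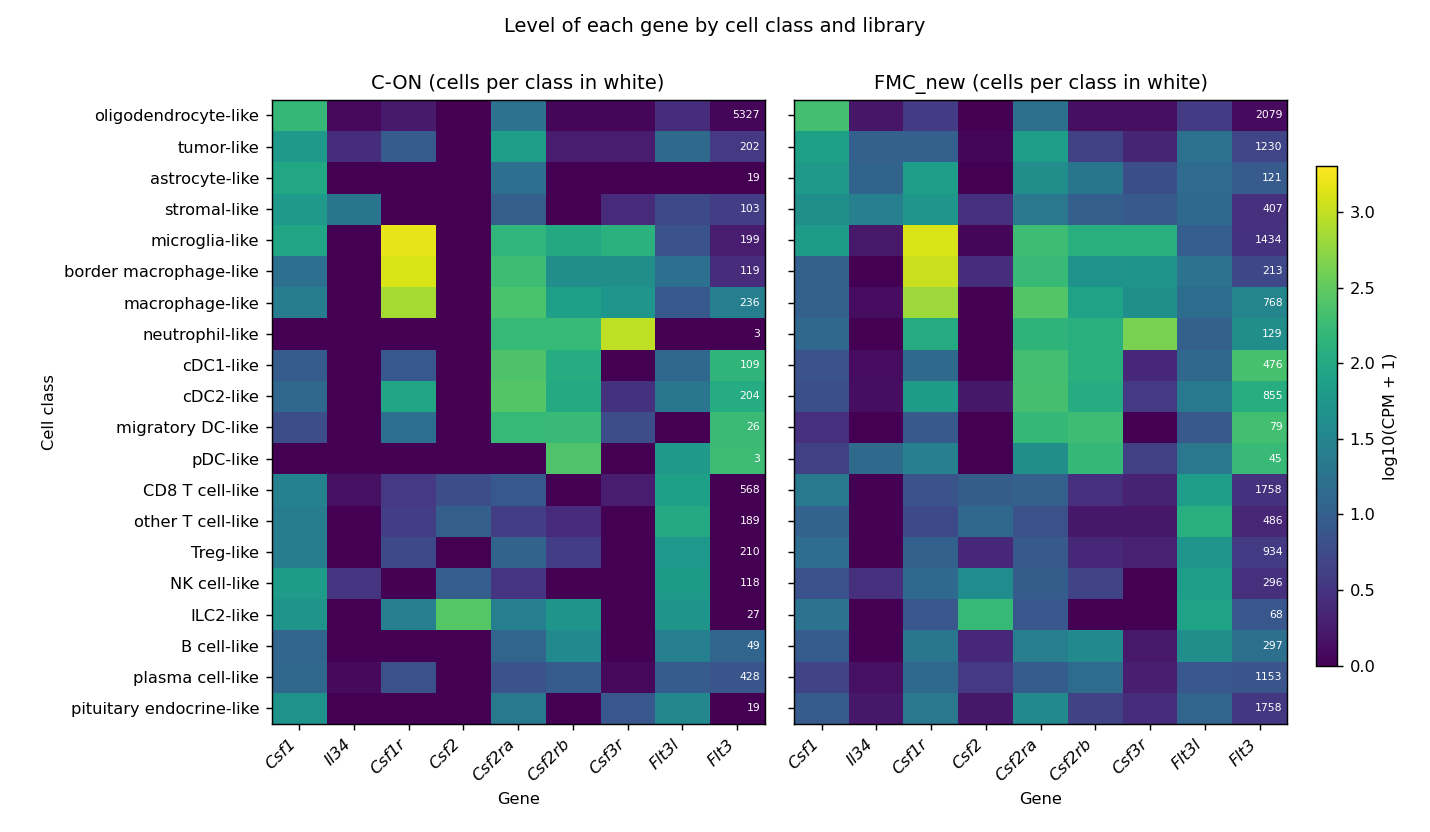
Level of each of the 9 genes (columns) in 20 cell classes (rows) in C-ON (left) and FMC_new (right), as log10(CPM + 1), with the number of cells of each class in white in the last column. Csf1r is brightest in the microglia-like row of both libraries (1504 and 1289 CPM), Csf1 in the oligodendrocyte-like row (159 and 202 CPM), and rows with 3 cells in C-ON rest on few UMIs.

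Csf1, the main ligand of Csf1r, was highest in oligodendrocyte-like cells in both libraries. Its level there was 159 CPM (155-163) in C-ON from 7300 UMIs and 202 CPM (196-209) in FMC_new from 3436 UMIs. A Csf1 UMI was found in 60.9% and 65.8% of these cells. The next levels were lower. Microglia-like cells had 86.3 CPM (70.2-105) and 66.5 CPM (60.7-72.7), and tumor-like cells had 58.5 CPM (45.5-74.2) and 73.5 CPM (67.2-80.3). Those intervals overlapped in both libraries, so the order of microglia-like and tumor-like cells was not settled by counting error. In C-ON 3 of the 199 microglia-like cells held 24, 10 and 8 of the 100 UMIs, or 42.0%, while in FMC_new the 3 highest cells held 12.4%. Stromal-like cells had 58.8 CPM (41.8-80.4) and 43.2 CPM (35.0-52.8), and astrocyte-like cells, only 19 in C-ON, had 91.4 CPM from 6 UMIs and 60.1 CPM from 23 UMIs. NK cell-like cells differed between the libraries, at 64.8 CPM (43.7-92.5) from 30 UMIs in C-ON and 5.69 CPM (2.09-12.4) from 6 UMIs in FMC_new. In C-ON 3 of these cells held 40.0% of the 30 UMIs. The cDC2-like cells were low in both, at 12.0 and 5.34 CPM.

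The level per UMI and the number of cells together set where the Csf1 transcripts were found. Oligodendrocyte-like cells held 91.4% of all Csf1 UMIs in C-ON, where they held 69.9% of the UMIs of all genes. In FMC_new they held 62.2% of the Csf1 UMIs and 17.1% of all UMIs. The share of Csf1 was above the share of all UMIs in each library. The tumor-like class added 0.85% and 9.06% of the Csf1 UMIs, and the microglia-like class added 1.25% and 8.73%.

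**Figure D2:**
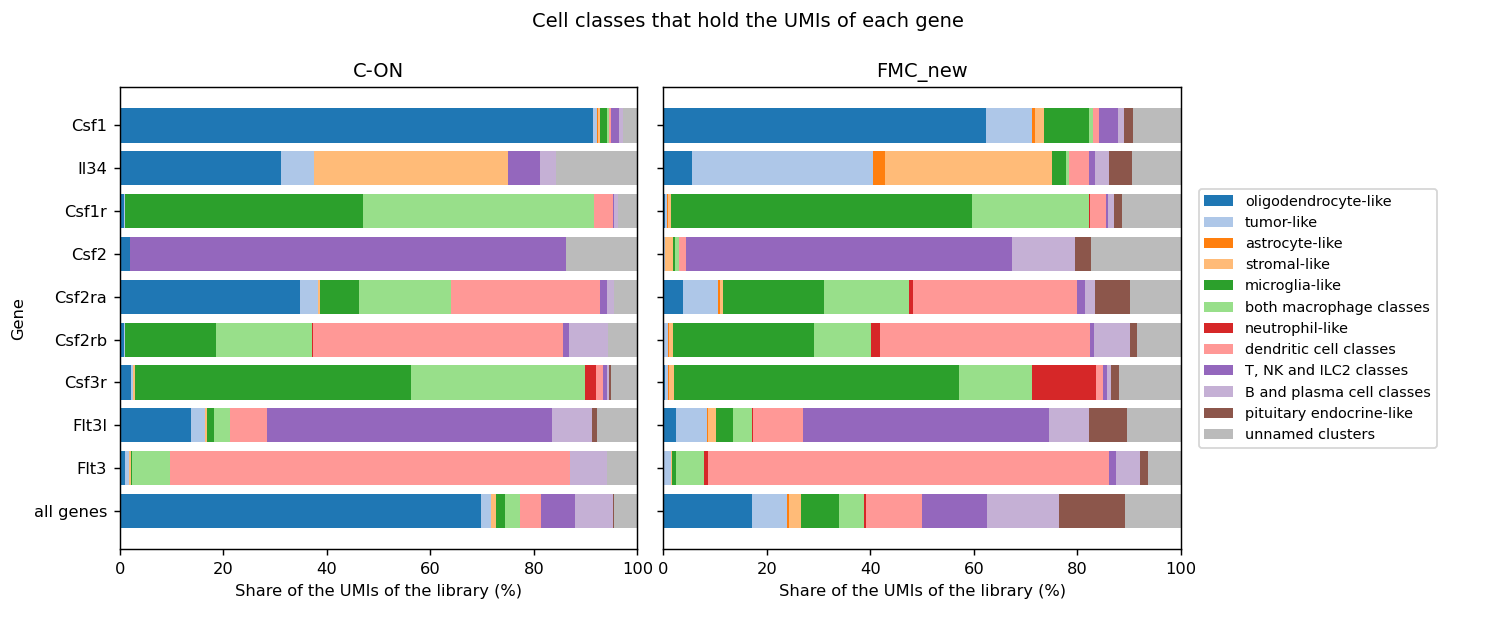
Share of the UMIs of each gene (rows, in percent) that fell in each group of cell classes (colors), for C-ON (left) and FMC_new (right), with the share over all genes in the bottom bar. Oligodendrocyte-like cells take 91.4% and 62.2% of Csf1, the dendritic cell classes 77.2% and 77.4% of Flt3, and the microglia-like class 45.9% and 58.1% of Csf1r.

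Csf1 also varied among the oligodendrocyte-like clusters themselves. Over 12 clusters its level, with both libraries summed, ran from 83.6 to 345 CPM, a 4.12-fold range around a median of 163. The lowest cluster was led by Ptgds and Opalin, genes of mature myelinating cells, at 83.3 CPM (72.7-94.9) in C-ON and 84.6 CPM (67.5-105) in FMC_new. The highest was led by C4b, a complement component, and Il33, an alarmin, at 351 CPM (319-385) and 341 CPM (316-367). The intervals of these clusters were far apart in each library while the libraries nearly coincided within each cluster. A cluster led by Klk6, C4b and Serpina3n had 219 and 209 CPM. One led by Klk8 and the interferon-induced Iigp1 had 251 CPM (235-269) and 192 CPM (173-212), where the libraries did not overlap. The 3 lowest clusters in the summed order were all led by Opalin or Ptgds. Median UMIs per cell differed among these clusters (4763 in the lowest and 9588 in the highest in FMC_new), and CPM is taken over those totals.

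**Figure D3:**
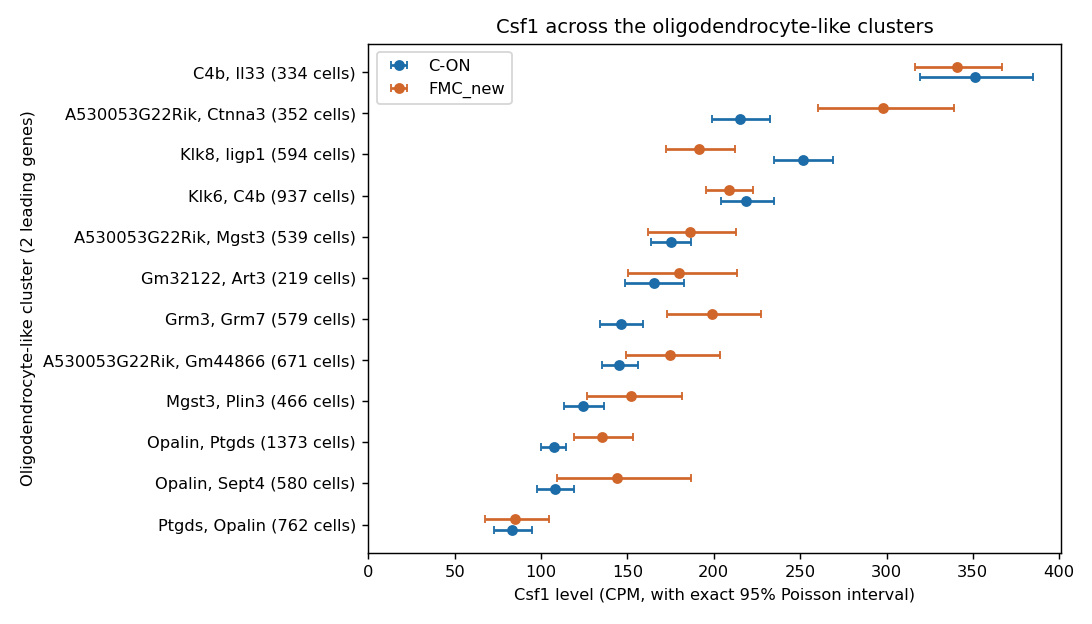
Csf1 level in CPM (horizontal axis) in each of the 12 oligodendrocyte-like clusters, named by 2 leading genes, in C-ON (blue) and FMC_new (orange) with exact 95% Poisson intervals. The C4b, Il33 cluster sits at 351 and 341 CPM, above every other cluster in both libraries, and the Ptgds, Opalin cluster at 83.3 and 84.6 CPM is the lowest in both.

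Il34, the other ligand of Csf1r, was scarce. The libraries gave 32 and 180 Il34 UMIs in 28 and 134 kept cells. Stromal-like cells, which express fibroblast collagens, were highest at 18.1 CPM (9.35-31.6) from 12 UMIs and 26.4 CPM (20.03-34.1) from 58 UMIs. Among the 13 classes tumor-like cells followed in FMC_new at 9.27 CPM (7.12-11.9) from 63 UMIs in 52 cells, while in C-ON they gave 2 UMIs, or 1.72 CPM (0.208-6.22). Oligodendrocyte-like cells, the main class for Csf1, gave 10 Il34 UMIs in each library, at 0.218 and 0.589 CPM. Thus the ligands of the same receptor were highest in different classes in both libraries.

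Within the stromal-like class, a cluster of 52 cells led by Dcn, Vtn and Lum, genes of the fibroblast matrix, held 37 of the 58 Il34 UMIs of FMC_new and 3 of the 12 of C-ON. There Il34 stood at 34.7 CPM (7.15-101) in C-ON from 3 UMIs and at 253 CPM (178-348) in FMC_new from 37 UMIs. The larger stromal-like cluster of 458 cells had 15.6 CPM (7.14-29.6) and 10.2 CPM (6.33-15.6). The intervals of the clusters were apart in FMC_new and overlapped in C-ON, and the small cluster held only 31 and 21 cells in these libraries. In the whole stromal-like class of FMC_new 3 cells held 7, 6 and 5 of the 58 UMIs, a clumping that the intervals do not cover. Stromal-like and tumor-like cells held 32.2% and 35.0% of the FMC_new Il34 UMIs.

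Csf1r, at chr18:61100598-61132149 on the plus strand, was read mostly in microglia and macrophages. It reached 1504 CPM (1434-1576) and 1289 CPM (1263-1315) in microglia-like cells, and 1313 CPM (1223-1408) and 1100 CPM (1041-1161) in border macrophage-like cells, the macrophages of meninges and vessels marked by Mrc1, Pf4 and Lyve1. The remaining macrophage-like cells had 719 CPM (673-768) and 648 CPM (622-675). The order of these 3 classes was the same in both libraries and their intervals did not overlap. With cells named one by one from their own markers, the order of the first and the second turned in C-ON, at 1342 CPM in microglia-like and 1361 CPM in border macrophage-like cells, and was kept in FMC_new at 1171 and 1028 CPM. The classes differed by 1.15-fold and 1.17-fold between the first and the second, so microglia-like and border macrophage-like cells were close. In the dendritic classes Csf1r was 86.8 and 66.0 CPM in cDC2-like cells and 7.02 and 12.9 CPM in cDC1-like cells.

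Most microglia-like cells (93.0% and 86.6%) and border macrophage-like cells (95.8% and 96.2%) had a Csf1r UMI. The same share in oligodendrocyte-like cells, a class that should lack the receptor, was 0.451% and 1.35% at medians of 8068 and 7818 UMIs per cell, against 4650 and 4179.5 in microglia-like cells. With every cell thinned to 1000 UMIs the shares were 68.9% and 64.2% in microglia-like cells and 0.113% and 0.195% in oligodendrocyte-like cells. Tumor-like cells had Csf1r at 7.75 CPM (3.54-14.7) and 9.27 CPM (7.12-11.9), in 1.98% and 2.60% of cells. Without cells that held 4 or more markers of another lineage these levels were 1.10 CPM (0.0279-6.14) from 1 UMI and 3.41 CPM (1.81-5.83) from 13 UMIs, against 0.554 and 1.03 CPM (0.589-1.67) in oligodendrocyte-like cells. In this setting the FMC_new level in tumor-like cells was above that of oligodendrocyte-like cells, while in C-ON 1 UMI does not settle it. That FMC_new level was not above those of CD8 T cell-like and plasma cell-like cells without such cells, given further below. With cells named one by one the order turned in FMC_new, at 21.4 CPM in tumor-like and 35.5 CPM in oligodendrocyte-like cells. In C-ON those levels were 23.2 and 8.46 CPM, so the order depended on how cells were named. Stromal-like cells gave 0 Csf1r UMIs in C-ON, which allows up to 4.53 CPM, and 119 UMIs or 54.1 CPM (44.8-64.8) in FMC_new. With the same cells left out, the FMC_new value was 24.6 CPM (15.4-37.3), and C-ON stayed at 0 UMIs in 44 cells.

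Ligand and receptor were read in the same cell mostly in the microglia-like class, where 225 of 1633 cells held UMIs of both Csf1 and Csf1r. Nearly every microglia-like cell with Csf1 had Csf1r as well (225 of 226). Csf1r was found in most cells of this class in any case (185 of 199 in C-ON and 1242 of 1434 in FMC_new). A link between the genes within cells was not tested. The pair was found in 38 of 7406 oligodendrocyte-like cells and 14 of 1432 tumor-like cells. Il34 and Csf1r were found together in fewer than 5 cells of any class.

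The microglia-like class held 2 clusters that differed in several members. One of 994 cells, led by Il1a, P2ry12 and Tmem119, had Csf1 at 92.0 CPM (74.7-112) and 78.4 CPM (71.5-85.8). The other, of 639 cells and led by Cxcl13, Trem2 and C1qa, had 21.6 CPM (2.61-77.9) and 9.54 CPM (4.93-16.7). Csf2rb was 137 CPM (128-147) against 23.1 CPM (15.4-33.1) in FMC_new, and Csf3r was 130 CPM (121-139) against 44.5 CPM (33.6-57.8). Csf1r itself differed less, at 1329 against 1099 CPM in FMC_new. The second cluster was shallow, with medians of 1489 and 1713.5 UMIs per cell against 5956 and 6588.5. In C-ON it had only 45 cells. The part of depth in these differences was not tested.

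Csf2 (GM-CSF) was the member concentrated in the fewest cells. C-ON gave 51 UMIs in 19 cells and FMC_new gave 269 in 95 cells, and the 10 highest cells held 82.4% and 55.4% of them. The T, NK and ILC2 classes together held 84.3% and 62.8% of the Csf2 UMIs. The level was highest in ILC2-like cells, group 2 innate lymphoid cells marked here by Il1rl1, Areg and Il13, at 265 CPM (164-406) and 164 CPM (121-217). These values rest on 21 UMIs in 3 of 27 cells and 48 UMIs in 6 of 68 cells, and single cells held 14 and 28 of them. With cells named one by one the levels in ILC2-like cells were lower, at 121 and 109 CPM. Because of the 27 cells in C-ON this class was outside the 13 compared above. Where classes of at least 20 cells entered, Csf2 was highest in the same class in both libraries and at least 2 times the next.

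NK cell-like cells had Csf2 at 8.63 CPM (2.35-22.1) from 4 UMIs and 38.9 CPM (27.9-52.7) from 41 UMIs, of which 17 and 15 came from 2 cells. Other T cell-like cells had 8.87 and 11.8 CPM. CD8 T cell-like cells had 5.01 and 8.54 CPM, mostly from a cluster led by Xcl1 with 10.6 CPM (5.27-18.9) and 17.3 CPM (12.9-22.7), while the cluster led by Gzmk gave 1 and 3 UMIs. In plasma cell-like cells of FMC_new, 31 UMIs came from 4 cells, and C-ON gave 0 UMIs, which allows up to 0.67 CPM. Oligodendrocyte-like cells had 1 UMI and 0 UMIs, and the 0 allows up to 0.177 CPM.

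Csf2ra, the ligand-specific chain, was spread over most myeloid classes. It lay at 258 CPM (233-285) and 214 CPM (203-226) in cDC2-like cells, 238 CPM (208-270) and 206 CPM (191-221) in cDC1-like cells, and 233 CPM (207-262) and 259 CPM (242-276) in macrophage-like cells. These 3 classes overlapped in C-ON, while macrophage-like cells were above both dendritic classes in FMC_new. Border macrophage-like cells had 190 and 167 CPM, migratory DC-like cells had 164 and 159 CPM, and microglia-like cells had 148 and 186 CPM. The spread over these classes was narrow next to that of Csf1r. The pDC-like cells of FMC_new departed from it, with 13 Csf2ra UMIs in 11 of 45 cells, against 48 UMIs of Csf2rb.

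Csf2rb, the signalling chain, followed another order. Among classes of at least 20 cells it was highest in migratory DC-like cells, which carry Ccr7, at 174 CPM (121-242) and 185 CPM (150-225). The C-ON level rests on 35 UMIs in 15 of 26 cells. Of these UMIs the 3 highest cells held 11, 4 and 3, or 51.4%, a clumping that the interval does not cover. In FMC_new 99 UMIs came from 39 of 79 cells, and the 3 highest cells held 22.2%. The cDC1-like cells had 110 and 123 CPM, cDC2-like cells 102 and 109 CPM, microglia-like cells 95.8 and 117 CPM, and macrophage-like cells 73.0 and 81.2 CPM. Border macrophage-like cells were lowest of these at 41.3 and 49.0 CPM. In the 13 larger classes, cDC1-like, cDC2-like and microglia-like cells led with overlapping intervals. Csf2rb2 was 36.3 CPM and 52.1 CPM in microglia-like cells. In the 45 pDC-like cells of FMC_new it gave 110 UMIs, more than the 48 of Csf2rb. B cell-like cells had Csf2rb at 36.6 and 35.6 CPM.

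The chains of the GM-CSF receptor did not appear in equal parts in every class. The UMIs of Csf2ra for each UMI of Csf2rb are not corrected for gene length or capture, so they are compared between classes only. The ratio was 1.55 (1.21-1.99) and 1.59 (1.46-1.74) in microglia-like cells, 3.20 and 3.19 in macrophage-like cells, and 0.94 and 0.86 in migratory DC-like cells. As whole classes, microglia-like and macrophage-like cells did not overlap in either library. The microglia-like clusters were not alike, with both libraries summed. The one led by Il1a had Csf2ra at 194 CPM and Csf2rb at 132 CPM, and the shallow one had 113 and 21.5 CPM. The pDC-like cells of FMC_new had the lowest ratio, 0.27 (0.13-0.51). The tumor-like class as a whole was far above these ratios. In C-ON it had 82 Csf2ra UMIs against 1 of Csf2rb, a ratio of 82.0 (14.3-3278). In FMC_new it had 466 against 23, a ratio of 20.3 (13.3-32.3). Oligodendrocyte-like cells had 793 against 5 UMIs and 268 against 6 UMIs.

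In the tumor-like class Csf2ra was thus read with little Csf2rb. The Csf2ra level was 70.6 CPM (56.1-87.6) and 68.5 CPM (62.5-75.1), and it was found in 30.2% and 28.8% of cells. The 3 tumor-like clusters were close, at 56.8, 65.4 and 70.8 CPM with both libraries summed. Csf2rb was not even among them. The largest cluster, of 947 cells led by Cspg5, gave 1 Csf2rb UMI against 432 of Csf2ra, while a cluster of 366 cells led by Rnd2 and Bcan gave 20 against 81 and so held most of the Csf2rb of the class, at 16.1 CPM (9.86-24.9). Nearly all cells of the second cluster (350) were from FMC_new, where their median was 1891 UMIs against 6391.5 in the first. Oligodendrocyte-like cells had 17.3 CPM (16.1-18.5) and 15.8 CPM (14.0-17.8), in 12.7% and 11.4% of cells. With cells thinned to 1000 UMIs the shares were 8.08% and 7.86% in tumor-like cells and 1.90% and 1.12% in oligodendrocyte-like cells. Lymphoid classes, which should hold little of this chain, had lower levels, such as 7.10 and 9.29 CPM in CD8 T cell-like cells. The pattern was not limited to glial classes, since pituitary endocrine-like cells of FMC_new gave 475 Csf2ra against 43 Csf2rb UMIs. Astrocyte-like cells of FMC_new gave 16 against 7. With cells named one by one and libraries summed, astrocyte-like cells had Csf2ra at 66.4 CPM and Csf2rb at 4.52 CPM. Tumor-like cells named that way had 73.2 and 3.72 CPM. Without cells that held markers of another lineage the tumor-like level was 65.0 CPM (49.5-83.8) and 63.4 CPM (55.7-72.0). The level was almost as high without those cells.

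Single cells showed the same split. Both chains were found in 354 of 1059 cDC2-like cells, 204 of 585 cDC1-like cells, 355 of 1633 microglia-like cells and 170 of 1004 macrophage-like cells. In tumor-like cells 415 of 1432 held Csf2ra, 22 held Csf2rb and 8 held both. In oligodendrocyte-like cells 917 held Csf2ra and 11 held Csf2rb, of 7406. A cell without a UMI may still express a gene at these depths.

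**Figure D4:**
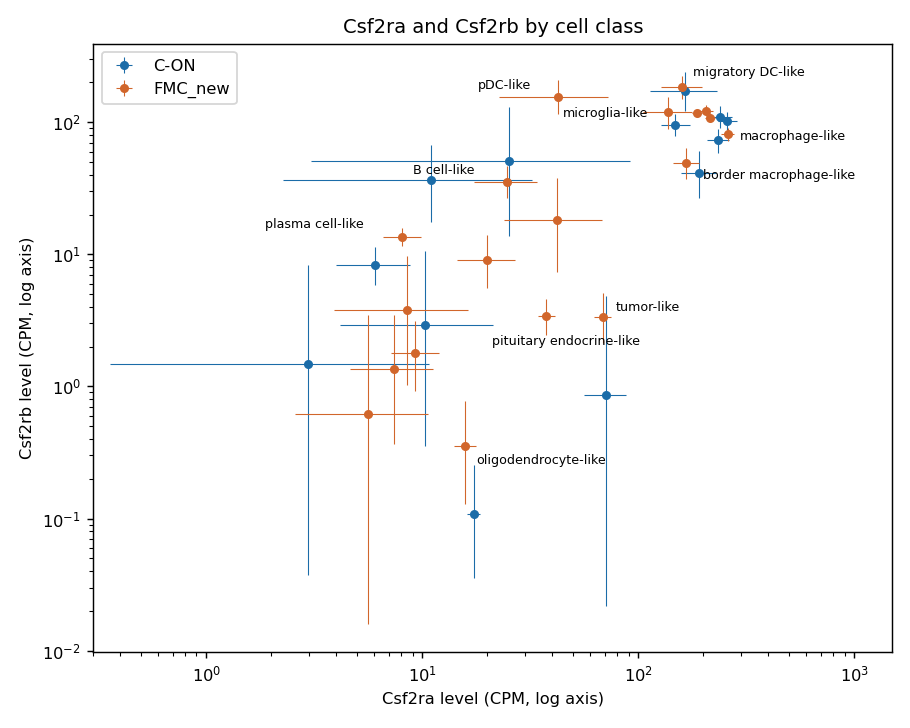
Csf2ra level (horizontal, CPM, log axis) against Csf2rb level (vertical, CPM, log axis) in each cell class in which both were read, with exact 95% Poisson intervals, in C-ON (blue) and FMC_new (orange). Most myeloid classes sit at the upper right, with pDC-like cells further left. Tumor-like cells (70.6 and 68.5 CPM of Csf2ra, 0.861 and 3.38 CPM of Csf2rb) and oligodendrocyte-like cells lie at the lower edge.

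Csf3r, the G-CSF receptor, was highest in neutrophil-like cells by level, at 436 CPM (376-503) from 187 UMIs in the 129 FMC_new cells. The 3 neutrophil-like cells of C-ON gave 6 UMIs. Among the 13 classes compared it was highest in microglia-like cells, at 127 CPM (107-149) and 115 CPM (107-123). The macrophage-like class had 53.7 CPM (41.6-68.2) and 42.8 CPM (36.3-50.2), and the border macrophage-like class had 41.3 CPM (26.8-61.0) and 49.9 CPM (38.0-64.3). Microglia-like cells were apart from both, which overlapped each other. Microglia-like cells held 53.5% and 55.1% of all Csf3r UMIs, and neutrophil-like cells 2.18% and 12.4%. In cDC1-like cells C-ON gave 0 UMIs, which allows up to 3.01 CPM. The ligand gene Csf3 gave 0 UMIs in C-ON and 3 in FMC_new.

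Flt3l was read mainly in lymphocytes. It was highest in other T cell-like cells (T cells outside the CD8 and regulatory classes) at 104 CPM (80.7-131) and 121 CPM (104-139). CD8 T cell-like cells had 73.1 CPM (62.7-84.8) and 68.3 CPM (62.2-74.9), NK cell-like cells 62.6 and 68.3 CPM, and Treg-like cells 55.8 CPM (39.5-76.7) and 51.4 CPM (43.6-60.3). The first class was apart from the CD8 class in FMC_new only, and the CD8, NK and Treg classes overlapped in C-ON. Where classes of at least 20 cells entered, ILC2-like cells came next after other T cell-like cells in FMC_new, with 24 UMIs in 21 of 68 cells. In C-ON the CD8 class came next, and ILC2-like cells gave 4 UMIs in 27 cells. Among CD8 T cell-like clusters the one led by Gzmk was higher, at 90.1 CPM (73.2-110) and 98.3 CPM (86.3-111), than the one led by Xcl1, at 58.6 CPM (44.8-75.3) and 50.4 CPM (42.7-59.2). This was the reverse of the order of Csf2 in these clusters, and the intervals overlapped narrowly in C-ON. Tumor-like cells had 12.9 and 16.3 CPM, and oligodendrocyte-like cells 1.72 and 2.77 CPM. Most cells with Flt3l held 1 UMI, namely 427 of 495 in C-ON and 1391 of 1614 in FMC_new.

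Flt3 was confined mainly to dendritic cells, which held 77.2% and 77.4% of its UMIs. Migratory DC-like cells had 179 CPM (125-247) and 198 CPM (162-240), cDC1-like cells 145 CPM (123-171) and 218 CPM (202-234), and cDC2-like cells 108 CPM (92.2-126) and 114 CPM (106-122). The pDC-like cells of FMC_new had 169 CPM (126-222). Cells of cDC2 type were below cDC1-like cells in FMC_new, while in C-ON their intervals overlapped slightly. Macrophage-like cells had 25.7 and 30.8 CPM and microglia-like cells 0.863 and 1.93 CPM. Within cDC1-like cells a shallow cluster of 173 cells had 66.4 CPM (42.5-98.8) against 213 CPM (200-228) in the other, of 412 cells, with both libraries summed. The shallow cluster also listed the hemoglobin gene Hbb-bs among its leading genes.

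**Figure D5:**
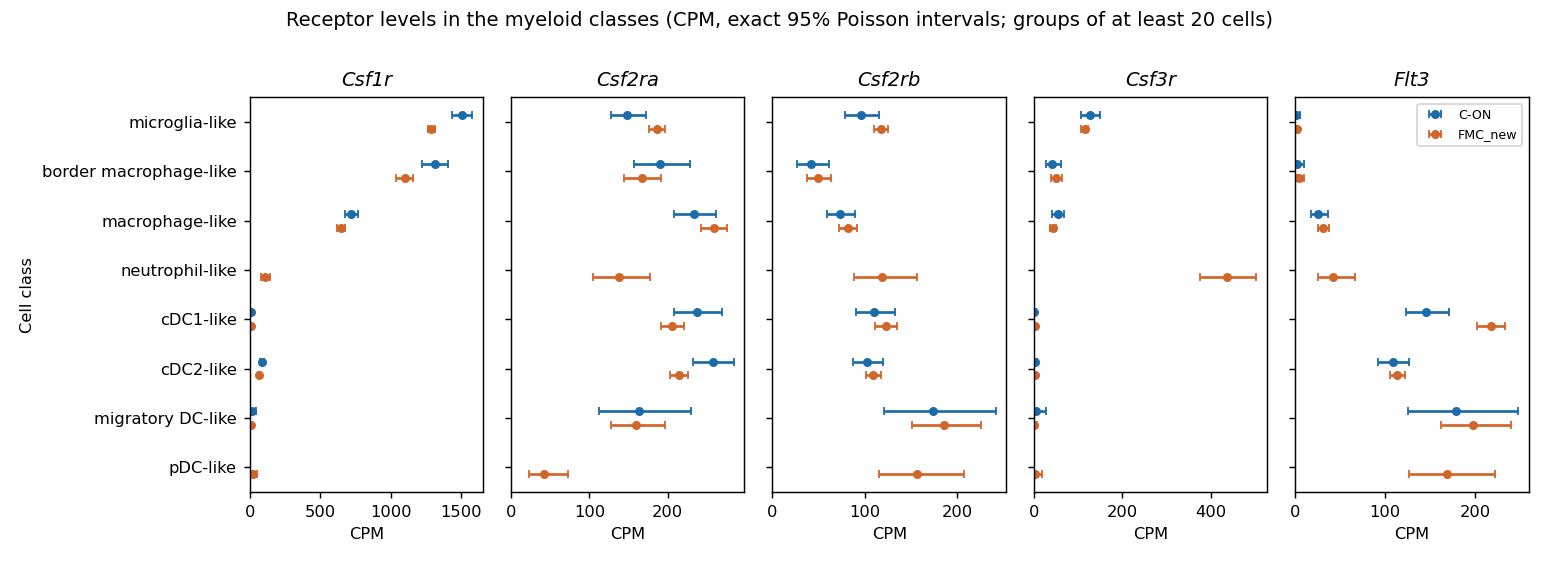
Levels of the 5 receptor genes (panels, CPM, each on its own axis from 0) in the 8 myeloid classes (rows) in C-ON (blue) and FMC_new (orange) with exact 95% Poisson intervals, for groups of at least 20 cells. Csf1r marks microglia and macrophages, Flt3 marks the dendritic rows, Csf3r is highest in the neutrophil-like row (436 CPM in FMC_new), and Csf2ra and Csf2rb extend over nearly all rows.

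Csf1r and Flt3 thus divided the myeloid classes. In cDC2-like cells both were read, with 166 of 1059 cells holding a UMI of each, and in cDC1-like cells only 11 of 585 held both. In macrophage-like cells 95 of 1004 held both, and in microglia-like cells 11 of 1633. Flt3 and Csf2rb were found together in 192 of 585 cDC1-like cells and 35 of 105 migratory DC-like cells.

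The libraries were compared for each member in each of the 13 classes with at least 20 UMIs over both, which gave 71 comparisons. FMC_new was at least 2 times C-ON in 13 of 71, against 5.86% of 139279 gene and class pairs. C-ON was at least 2 times FMC_new in 5 of 71, against 6.44%, and 53 were within 2-fold. All 5 of the latter were Csf1, in NK cell-like, cDC2-like, macrophage-like, other T cell-like and plasma cell-like cells. The ratio of FMC_new to C-ON was 0.09 (0.03-0.21) in NK cell-like cells, from 30 and 6 UMIs, and 0.40 (0.23-0.68) in macrophage-like cells. The oligodendrocyte-like class, where Csf1 is highest, held 69.9% of the C-ON UMIs and 17.1% of those of FMC_new. The part of free RNA in the Csf1 differences was not tested. Without cells with markers of another lineage, Csf1 in NK cell-like cells was 30.7 CPM (13.3-60.5) in C-ON and 4.26 CPM (1.16-10.9) in FMC_new. With cells named one by one the levels were closer, at 17.5 CPM in C-ON and 8.36 CPM in FMC_new.

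Of the 13 comparisons higher in FMC_new, 5 were Csf1r, in CD8 T cell-like, Treg-like, oligodendrocyte-like, plasma cell-like and stromal-like cells. In oligodendrocyte-like cells the ratio was 3.77 (2.36-6.09), from 0.718 to 2.71 CPM. The microglia-like class, where Csf1r is highest, held 1.76% of the C-ON UMIs and 7.31% of those of FMC_new. Without cells with markers of another lineage the levels were 0.554 and 1.03 CPM in oligodendrocyte-like cells and 3.16 and 3.76 CPM in CD8 T cell-like cells, both less than 2-fold apart. In plasma cell-like cells they were 0.351 CPM from 1 UMI and 3.54 CPM from 37 UMIs, and in Treg-like and stromal-like cells C-ON gave 0 UMIs against 10 and 22 in FMC_new. The part of free RNA in these differences was not tested. Il34 in tumor-like cells (ratio 5.38, 1.43-45.4) and Csf2 in NK cell-like cells (ratio 4.50, 1.63-17.3) were also higher in FMC_new and rest on 2 and 4 UMIs in C-ON. In the highest of the 13 classes the ratio was 0.86 (0.81-0.90) for Csf1r, in microglia-like cells, and 1.50 (1.25-1.80) for Flt3, in cDC1-like cells. In cDC2-like cells Flt3 had a ratio of 1.05 (0.88-1.25).

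A list of 26 other genes of the pathway was read the same way. In it 23 had enough UMIs, 21 were highest in the same class in both libraries and 5 (Ptprz1, Sdc1, Il5ra, Stat5a and Irf8) were at least 2 times the next class in both, beside the backgrounds given above. Among ligands, Il3 gave 0 UMIs in either library and Il5 gave 2 and 23, of which 16 in FMC_new lay in ILC2-like cells. Kitl, the stem cell factor, was highest in macrophage-like cells in C-ON (85.0 CPM) and stromal-like cells in FMC_new (82.8 CPM). Kit, its receptor and a relative of Csf1r and Flt3, was highest in cDC1-like cells (148 and 137 CPM).

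Other receptors for Il34 stood apart from Csf1r. Ptprz1, a receptor phosphatase described as an Il34 receptor, was 1827 and 1726 CPM in tumor-like cells and 10.3 and 12.1 CPM in the next of the 13 classes. Astrocyte-like cells, too few to be among these, had 716 and 1095 CPM. Sdc1, a proteoglycan reported to bind Il34, was 137 and 113 CPM in plasma cell-like cells, which it marks. Il5ra, the alpha chain that pairs with Csf2rb for interleukin-5, was 10.7 and 8.30 CPM in plasma cell-like cells. The related chain Il3ra was highest in Treg-like cells at 36.7 and 35.3 CPM.

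Among the signalling genes below these receptors, Tyrobp, the adaptor also known as DAP12, was 2530 and 3099 CPM in microglia-like cells, and Plcg2 was 120 and 105 CPM there. Inpp5d (SHIP1) was highest in cDC1-like cells at 462 and 404 CPM and Ptpn6 (SHP-1) in cDC2-like cells at 233 and 222 CPM. Jak2, the kinase bound to Csf2rb, was 317 and 370 CPM in Treg-like cells and 257 and 300 CPM in cDC2-like cells. Stat5a (79.4 and 66.9 CPM), Stat5b (109 and 169 CPM) and the Stat5 target Cish (235 and 205 CPM) were highest in Treg-like cells, whose growth factor Il2 also signals through Stat5. Socs3 was highest in cDC2-like cells at 634 and 525 CPM, Stat3 in microglia-like cells at 445 and 358 CPM, and Cbl in NK cell-like cells at 97.1 and 137 CPM. Socs2 was 119 and 72.6 CPM in Treg-like cells. It is also one of the marker genes used to name migratory DC-like cells.

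Of the transcription factors, Irf8, needed for the cDC1 lineage, was 1009 and 972 CPM in cDC1-like cells and at least 2 times the next class in both libraries. Spi1 was highest in cDC1-like cells in C-ON (381 CPM) and cDC2-like cells in FMC_new (429 CPM). Cebpa was 332 and 293 CPM in microglia-like cells, and Cebpb was 1227 and 1288 CPM in border macrophage-like cells.

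For each member the 2 genes with the most similar profile were found by Pearson's r of log2(CPM + 10) over 32 units, each a class in 1 library with at least 50 cells. The units share libraries and depth, so r is a description. Csf1r was nearest to the complement genes C1qb (0.99) and C1qc (0.98), Csf2rb to Spi1 (0.97), and Csf2ra to Ralb (0.94). Csf3r was nearest to C5ar2 (0.97) and Pilra (0.94), and Flt3 to Zfp366 (0.94) and Htr7 (0.93). Flt3l was nearest to the chemokine receptor Cxcr6 (0.94) and Gimap3 (0.94). Among the other ligands, Csf1 was nearest to Tjp1 (0.89) and Gde1 (0.88), Il34 to Igfbp2 (0.98) and Gulp1 (0.96), and Csf2 to Gm10563 (0.89) and Cma1 (0.87).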

How the data were processed

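Single-cell libraries were made with the 10x Genomics 5′ kit. The authors aligned reads to mm10 and counted UMIs with Cell Ranger (7.2.0 in the submitters' processing notes, while the paper's methods name another version), and they deposited raw counts as whole numbers. These counts were used as deposited.

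Cells with 500 to 5000 genes, 500 to 20000 UMIs and at most 5% mitochondrial UMIs were kept. Clusters were built with Seurat 5.3.0 (R 4.3.3) by log normalization, 2000 variable features without the members and pathway list, CCA integration, 30 components and a resolution of 2.0. A cluster was named where at least 3 markers of a list were found in 20% of its cells at 2 times the cluster mean. How to treat conflicting clusters was settled after their leading genes were seen. Scrublet (scanpy 1.11.5) called 1 and 0 cells and did not work, so no doublets were removed, and cells with 4 or more markers of another lineage (897, or 10.2%, and 2656, or 15.8%) were left out as an alternative. Python 3.11.15, numpy 2.4.6, pandas 2.3.3 and scipy 1.17.1 gave sums, CPM and exact Poisson intervals. Shares of cells were also taken after thinning 25040 cells to 1000 UMIs, without 612 shallower cells. Zeros are given with a limit of 3 counts. Ratio intervals are exact and conditional on the summed counts. Coordinates come from a GRCm38 annotation, and coding sequences were aligned with Biopython 1.88. On simulated counts for 16982 genes, 91.0% of 4-fold and 100.0% of 8-fold class differences were recovered.

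Named genes are the members, a list of 26 pathway genes, the 2 most similar genes of each member (1 for Csf2ra and Csf2rb, where the other is not reported here) and markers. The members and lists were chosen with earlier results of these data known.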

Additional observations from a re-analysis of the deposited data

How the results depend on the processing

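No paired analysis was possible because both libraries belong to 1 group and no groups were compared. The number of members highest in the same class in both libraries was 7 of 9, and it was between 6 and 8 under every alternative run. The share over all genes moved as well, from 46.5% with cells thinned to 63.7% where at least 100 UMIs were required. The number of members at least 2 times the next class was 2, and it was between 1 and 3. For that count the share over all genes was between 13.5% and 18.7%. The count was 1 where at least 100 UMIs in each library were required, since Il34 and Csf2 then dropped out and 7 members were tested. Leaving out either library kept each of 9 levels within 1 SD of the mean, as must hold for 2 values. The levels in the highest class moved beyond 1 SD for 5 of 9 members with the mean of per-cell CPM (4 higher) and 4 of 9 with cells thinned to 1000 UMIs (3 higher). With cells named one by one 2 of 7 moved, both lower. These were Csf2 in ILC2-like cells, from a mean of 215 CPM to 115 CPM, and Csf3r in microglia-like cells, from 121 to 109 CPM. Removing cells with markers of another lineage moved 1 of 6, Il34, to 32.8 CPM. Removing shared barcodes, leaving Gh, Prl and Pomc out of the totals and a resolution of 0.8 moved none of those that could be computed. Removing the Scrublet calls (1 cell in C-ON and 0 in FMC_new) or reading unnamed clusters as classes moved none either. That had to hold, since the first removed almost no cells and the second left the cells of named classes unchanged. The alternatives on mixed cells, shared barcodes and hormones were chosen after seeing the data. Depth limits Il34 and Csf2, with 32 and 51 UMIs in C-ON.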
